A study of Mus musculus with 4 samples.

Results

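Tumor cells in the ascites of BTYNB-treated mice were compared with tumor cells of vehicle-treated mice by single-cell RNA sequencing. Tumor cells were taken as cells with at least 200 detected genes, at most 33% mitochondrial UMIs (unique molecular identifiers, which count captured RNA molecules) and at least 5115 UMIs, the size of the smallest cell deposited for the combination group. They also had at least 5 UMIs of the epithelial and mesothelial markers Krt7, Krt8, Krt18, Krt19 and Wt1, and no UMI of Ptprc, the pan-leukocyte antigen CD45. This gave 6829 control and 2812 BTYNB tumor cells, 9641 of the 46342 cells deposited for the 4 treatment groups. C57BL/6 mice received ID8-Trp53 knockout cells (genotype Trp53-/-), a syngeneic ovarian surface epithelial line, into the peritoneal cavity. After 7 days of engraftment the control group was given DMSO and an IgG control antibody, and the BTYNB group BTYNB and the same IgG control. Treatment went on until ascites reached about 3 mL. The remaining groups, anti-PD-1 (DMSO with a PD1 blocking antibody) and combination (BTYNB with that antibody), serve here as another pair of libraries with and without BTYNB. The labels give 50 mg/kg of BTYNB and 100 ng of antibody per dose, whereas the methods of the study give other amounts. Each treatment gave 1 library from the pooled ascites of more than 1 animal, so the spread between animals is unknown and no test was made. Every difference below is between 2 libraries, and its interval covers counting error only.

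Igf2bp1 is an oncofetal RNA-binding protein that protects bound transcripts from degradation, and BTYNB is a small molecule that impairs its binding to RNA. Transcripts known to be bound by Igf2bp1 include Myc, Actb and cell cycle regulators. The protein is largely absent from adult tissue and is re-expressed in aggressive ovarian carcinoma. Immediate early genes encode short-lived transcription factors and regulators that answer growth factors, stress and handling of cells within minutes to hours. NF-kB target genes include its own inhibitors and many chemokines.

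The 2 libraries differed in depth and in the cells around the tumor cells. The median tumor cell held 9987 UMIs in control and 18310.5 in BTYNB, and the sums over tumor cells were 73607707 and 55707522 UMIs. Tumor cells made up 92.7% of control cells at or above the floor on UMIs and 50.9% of BTYNB cells, and cells with Ptprc and no tumor marker numbered 132 and 7385. The floor kept 94.0% of control and 30.2% of BTYNB cells past the gene and mitochondrial limits. The marker limit decided on few cells, since 30 control and 6 BTYNB cells lay just under it with 4 marker UMIs, and 69 and 7 just inside it with 5. The median cell held 19 and 42 marker UMIs. Control and BTYNB shared 4 cell barcodes, and 0 among tumor cells. Of 52 leukocyte marker genes, 17 reached the minimum for measurement. Their sum over all 52 was 129 CPM (UMIs of a gene scaled to a common library total) in control and 170 in BTYNB, against 18192 and 12270 CPM in the leukocytes of the same libraries. The highest was Zbtb46 with 31.4 and 29.0 CPM. Mcpt8 was at 0 UMIs in BTYNB and Ms4a2 in control. The part of depth and of free leukocyte RNA in the results below was not tested, other than by the alternative settings given.

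Most genes had similar levels in both libraries. Among 12633 genes with at least 100 UMIs in either library, the median log2 ratio of BTYNB to control was -0.01, computed on CPM with 1 CPM added, and 89.7% lay within 0.5 of 0. In total, 667 genes were higher in BTYNB by at least 0.5 (5.28%) and 634 lower by at least 0.5 (5.02%), while 38 genes were at least 2-fold higher (0.301%) and 79 at least 2-fold lower (0.625%). These percentages are the background against which members of gene lists are read. Without cells having at least 3 UMIs of the chemokine Cxcl17, which were 50.0% of control and 55.9% of BTYNB tumor cells, 27 of 11197 genes were at least 2-fold higher (0.241%) and 47 at least 2-fold lower (0.42%). This limit lies in a continuous range, with 699 control and 231 BTYNB cells at 3 Cxcl17 UMIs and 843 and 320 at 2. It was set on UMIs before thinning, so deeper cells reached it more easily. The median tumor cell was deeper in BTYNB (18310.5 UMIs) than in control (9987), so the repeat did not leave out like cells in both libraries. The pseudocount makes the ratio of low genes smaller than the ratio of their CPM.

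**Figure D1:**
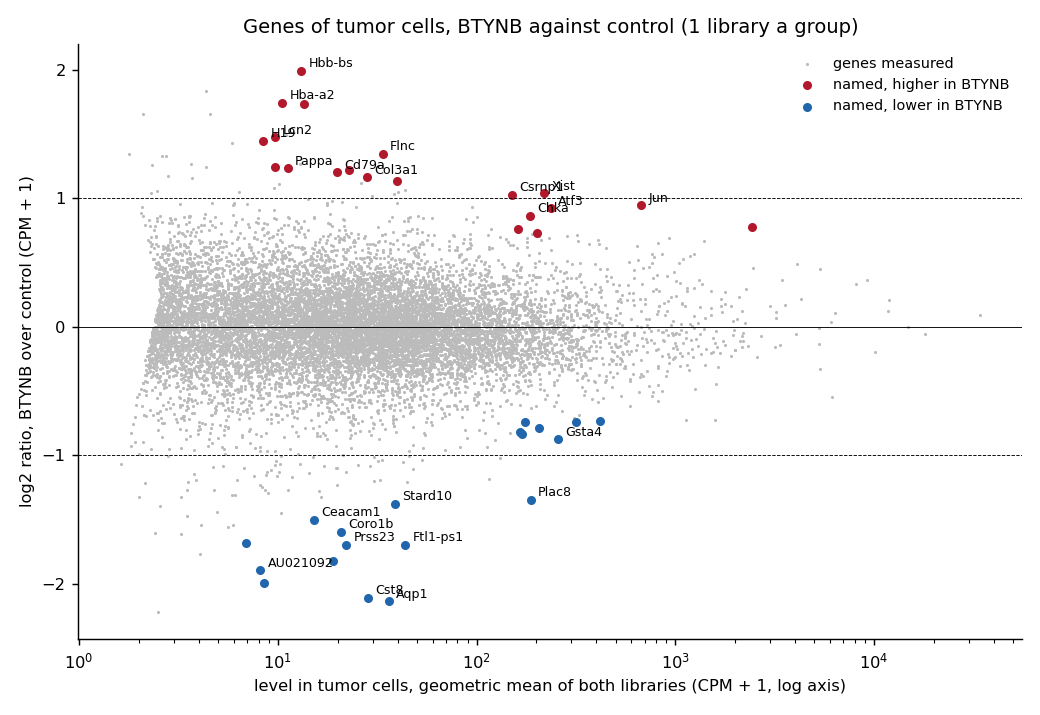
Each point is a gene measured in tumor cells, with its level on the horizontal axis (CPM + 1, log axis) and its log2 ratio of BTYNB to control on the vertical axis, from 1 library a group. Of the named genes (red, blue), Hbb-bs reaches 1.99 and Aqp1 -2.13, and dashed lines mark a 2-fold difference.

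The Igf2bp family itself showed small differences. Igf2bp1 stood at 8.56 CPM in control (630 UMIs) and 9.15 CPM in BTYNB (510 UMIs), a ratio of 1.07 with a 95% counting interval of 0.950 to 1.20. A UMI of Igf2bp1 was seen in 4.29% of control and 4.84% of BTYNB cells after every cell had been thinned to 5115 UMIs. Igf2bp2 was the most abundant paralog with 23.7 and 26.1 CPM, and Igf2bp3 the lowest with 1.39 and 1.54 CPM. Among 7 measured oncofetal RNA-binding protein genes, 1 was higher and 1 lower by at least 0.5. The higher was Msi1, a stem cell translational regulator, with 18.1 and 29.5 CPM (log2 ratio 0.68). The lower was Hmga2, a chromatin architectural factor, with 22.1 and 11.9 CPM (-0.84). The anti-PD-1 library, which also lacked BTYNB, held 179.5 CPM of Hmga2, so the 2 groups without BTYNB differed from each other by more than BTYNB did from control.

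Reported Igf2bp1-bound transcripts lay on both sides of 0. Of 17 measured, 2 were higher and 2 lower by at least 0.5 (1 and 1 without the cells having Cxcl17), and the median was -0.10 against -0.01 over all genes. Myc had 143.7 CPM in control and 155.3 in BTYNB, a ratio of 1.08 (1.05 to 1.11). Actb, encoding beta-actin, had 6002 and 4772 CPM (log2 ratio -0.33), Srf, the actin-linked transcription factor, 24.2 and 19.2 CPM (-0.32), and Mki67, a proliferation marker, 172.8 and 116.4 CPM (-0.57). Mdm2, the ubiquitin ligase of p53, was at 28.8 and 39.3 CPM (0.44). Cd274, encoding the checkpoint ligand PD-L1, was at 8.44 and 13.1 CPM (0.58), and at 0.46 once free leukocyte RNA was subtracted. Without the cells having Cxcl17 its log2 ratio was 0.38. The anti-PD-1 library, without BTYNB, held 17.1 CPM of Cd274, more than the BTYNB library, and combination 20.5 CPM. The largest value of the list belonged to H19, an imprinted non-coding RNA, with 4.13 and 13.0 CPM. It was counted in 0.6004% of control and 1.17% of BTYNB cells, and the 1% of cells with most H19 held 100% and 97.7% of its UMIs, so its ratio of 3.14 rests on few cells. Trp53, inactivated in this line, still gave 25.7 and 34.4 CPM of RNA. The counts do not show which part of a transcript was captured, so they do not check the knockout.

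Immediate early genes were higher in BTYNB almost throughout. Of 29 measured members, 15 were higher by at least 0.5 and 0 lower by as much, 28 were above 0, and the median was 0.52. Over all genes, 49% were above 0 and 51% below. Jun, a core AP-1 subunit, had 485 CPM in control and 934 in BTYNB, a ratio of 1.93 (1.90 to 1.95). Atf3, a stress-induced partner of Jun, had 170.8 and 324.8 CPM, a ratio of 1.90 (1.86 to 1.95). Both libraries with BTYNB stood above both libraries without it, since anti-PD-1 had 476 CPM of Jun and 127.9 of Atf3, and combination 909 and 309 CPM. Other AP-1 genes spread widely around the median. Fosb had 729 and 1181 CPM (log2 ratio 0.69), Jund 1102 and 1748 CPM (0.66), and Fos 2038 and 2505 CPM (0.30). Fosl1 had the largest ratio of the list with 12.4 and 25.3 CPM (0.98), but 45.7 CPM under anti-PD-1 and 24.96 under combination. Ier2 was the 1 member below 0, with 401 and 371.9 CPM (-0.11). Csrnp1, an AP-1-linked nuclear protein gene, was also among the abundant genes with the highest ratios, with 104.7 and 214.1 CPM (1.02).

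The difference in immediate early genes extended over the cells of the libraries. In cells thinned to 5115 UMIs, the sum over the list had a median of 51 UMIs a cell in control (25th to 75th percentile 34 to 79) and 79 in BTYNB (49.8 to 118). Jun was seen in 76.8% and 86.3% of cells and Atf3 in 47.1% and 66.5%. The top 1% of cells held 6.86% of Jun UMIs in control and 5.87% in BTYNB, so neither value rests on a few cells. The list sum was lower in deep cells of each library. Ranked by UMIs into 5 equal classes, control cells had means from 79.1 in the shallowest to 45.1 in the deepest class, and BTYNB cells had 101.1 and 65.2. BTYNB was above control in each depth class. In cells of 10000 to 20000 UMIs, a window chosen after the depth difference had been seen, the list median was 0.86.

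Several NF-kB regulator and chemokine genes were higher. Of 17 NF-kB subunit and feedback genes, 6 were higher by at least 0.5 and 0 lower, with a median of 0.32. They were Zc3h12a, an RNase that degrades inflammatory mRNAs (10.4 and 19.5 CPM, log2 ratio 0.85), Nfkbiz (87.7 and 144.6 CPM, 0.72), the inhibitor gene Nfkbia (166.1 and 265.7 CPM, 0.67), Tnfaip3, Rel and Birc3. With free leukocyte RNA subtracted, 3 of the 6 remained higher by at least 0.5. Tnfaip3 went from 0.60 to 0.30, Rel from 0.58 to 0.41 and Birc3 from 0.54 to 0.38, whereas Nfkbia was at 0.66. The subunit genes Rela (0.20), Nfkb1 (0.25) and Relb (0.23) showed smaller ratios, and Nfkbib was at -0.10. Without the cells having Cxcl17 the list median was 0.36.

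Of 14 measured chemokine genes, 6 were higher and 1 lower by at least 0.5, with a median of 0.40. With 5 CPM added in place of 1, which shrinks the ratio of low genes, 2 were higher. Measured genes had at least 100 UMIs in either library. Cxcl5 (64 UMIs in control, 179 in BTYNB) and Cxcl9 (54 and 111) reached this in BTYNB alone, and Cxcl15 (354 and 61) in control alone. For these genes the rule itself favors the direction in which they were counted. Cxcl1, a neutrophil attractant, had 67.6 CPM in control and 129.7 in BTYNB (log2 ratio 0.93), against 42.1 (anti-PD-1) and 112 CPM (combination). Ccl2, a monocyte attractant, had 14.0 and 28.4 CPM (0.97), against 12.9 and 26.5 CPM in that other pair. Both genes were thus higher in both libraries with BTYNB. Cxcl10, an interferon-induced T cell attractant, had 36.7 and 49.5 CPM (0.42). Ccl5 was higher by 0.58, but at -2.55 after subtraction of free leukocyte RNA, so its counts were within what the leukocytes of the library could supply under that estimate. Cxcl5 (0.87 and 3.21 CPM) had the largest ratio and was counted in 0.381% and 0.640% of cells. Cxcl15 was lower, with 4.81 and 1.10 CPM (-1.47). Cxcl17, by which cells were left out in the repeat, had 343 and 273 CPM (-0.33). Among cytokines and acute-phase genes, 3 of 16 were higher by at least 0.5 and 0 lower. They were Lcn2, encoding the iron-siderophore-binding lipocalin, with 4.81 and 15.1 CPM (1.47), Saa3 with 38.9 and 70.6 CPM (0.85), and Il1b, which lay at -0.92 once free RNA was subtracted. The top 1% of cells held 96.1% of Saa3 UMIs in control and 94.99% in BTYNB, while a UMI of Lcn2 was seen in 2.28% and 6.19% of cells.

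Promoters of these genes were searched for the letters of an NF-kB site (GGGA, any base, TTTCC) on both strands in RefSeq promoters of build GRCm38.p6, 250 bases before to 50 after a gene start. The letters were held by 2 of 14 matched NF-kB genes and 2 of 8 matched chemokines, against 0.466% of 27025 genes. Both lists were chosen for their link to NF-kB, so these shares describe the lists and not the treatment. The 4 windows below, 1 for each gene with the letters, show the letters in capitals. They have 8 bases on either side, 5′ to 3′ on the strand of the gene.
Cxcl1 (chr5:90891166-90891191, + strand): tgtactccGGGAATTTCCctggcccg
Nfkbia (chr12:55492659-55492684, - strand, letters on the opposite strand): actggcttGGAAATTCCCcgcgcctg
Nfkb2 (chr19:46305697-46305722, + strand): gtattttcGGGACTTTCCtaagcagc
Cxcl2 (chr5:90903794-90903819, + strand): tgagctcaGGGAATTTCCctggtccc
Their log2 ratios were 0.93 for Cxcl1, 0.67 for Nfkbia, 0.32 for Nfkb2 and 0.20 for Cxcl2, so genes with the same letters differed in size. The letters TGANTCA (N any base), searched for AP-1, were found in 1 of 23 matched immediate early genes, Zfp36l1 (as TGATTCA), against 8.97% of all genes. Allowing any middle base is looser than the AP-1 site itself, so a match need not be such a site.

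Cell cycle genes were lower in BTYNB. Of 44 S phase genes, 17 were lower and 0 higher by at least 0.5, with a median of -0.43 and 0 members above 0. Of 57 G2 and M phase genes, 28 were lower and 0 higher by at least 0.5, with a median of -0.48 and 3 above 0. Without the cells having Cxcl17, 4 of 43 S phase genes and 17 of 57 G2 and M genes were lower by as much, with 3 members above 0 in each list and medians of -0.28 and -0.36. Cdc6, a replication licensing factor, had 29.4 CPM in control and 17.6 in BTYNB (-0.71), and Tk1, a nucleotide salvage kinase, 48.1 and 28.3 CPM (-0.74). Cdt1, the partner of Cdc6 in licensing, was the S phase gene nearest to 0, with 42.4 and 42.1 CPM (-0.01). Ube2s, a ubiquitin-conjugating enzyme of the anaphase-promoting complex, had 48.3 and 20.6 CPM (-1.19), and Plk1, a mitotic kinase, 31.4 and 15.9 CPM (-0.94). Among the exceptions, Ncapd2 of the condensin complex was at 0.10 and Pttg1, encoding securin, at 0.02. In the pair anti-PD-1 and combination, Ube2s was 25.7 and 20.7 CPM and Plk1 30.2 and 22.5 CPM, and the list medians were -0.19 for S phase and -0.37 for G2 and M.

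Cyclin and inhibitor genes of G1, listed with regulators such as E2f4 and Rbl1, showed smaller differences. Of 13 measured, 1 was lower by at least 0.5 and 0 higher, with a median of -0.07. In sign, 9 were below 0 and 4 above. The lower gene was Cdkn1a, encoding the inhibitor p21, with 15.3 and 9.93 CPM (-0.58). Ccnd1 had 587 and 506 CPM (-0.21), and Cdk4 232 and 179.6 CPM (-0.37). The 30 MYC target genes held 0 members beyond 0.5 in either direction, with a median of -0.03, and of 0.06 without the cells having Cxcl17.

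The letters TTTGAA, part of the cell cycle homology region of many mitotic promoters, were found in 34 of 48 matched G2 and M genes (70.8%), against 20.2% of all genes. CCAAT was found in 36 of 48 (75%, against 41.1%). The E2F letters TTCCCGC were found in 15 of 32 matched S phase genes (46.9%), against 5.29% of all genes, and TTGGCGC in 8 of 32 (25%, against 2.85%). Both lists were chosen for their phase, so these shares describe the lists and not the treatment. The windows below belong to those genes with the letters whose ratios were lowest in each list.
Plk1 (chr7:122159457-122159478, + strand): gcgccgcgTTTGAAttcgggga
Kif2c (chr4:117178862-117178883, - strand, letters on the opposite strand): gctgctctTTCAAAcctgagta
Cdc6 (chr11:98908005-98908027, + strand, letters on the opposite strand): ggtggagaGCGGGAAatcgcctg
Kif2c, encoding a microtubule depolymerase of the centromere, had 29.4 and 16.4 CPM (-0.80).

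Besides the lower sums, a smaller share of BTYNB cells had many cell cycle UMIs. In cells thinned to 5115 UMIs, 53.6% of control cells (95% exact binomial interval 52.4 to 54.7%) and 37.6% of BTYNB cells (35.8 to 39.4%) had at least 10 UMIs of G2 and M genes. The anti-PD-1 and combination libraries gave 54.2% and 47.2%. The limit of 10 divides a continuous range, with 1101 control and 405 BTYNB cells between 8 and 11 UMIs. In the cells under it, the G2 and M list still had a median log2 ratio of -0.46 and the S phase list -0.37.

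Depth moved with this share in each library. Control cells with at least 10 such UMIs had a median of 11097 UMIs against 8998 for the rest, and BTYNB cells 21472 against 17264.5. From the shallowest to the deepest of the 5 depth classes, the share in control was 38.8, 44.8, 49.1, 61.1 and 73.9%, and in BTYNB 32.4, 28.8, 28.6, 41.3 and 56.7%. BTYNB lay below control in every class, with the smallest gap among the shallowest cells, where the intervals were 36.2 to 41.4% and 28.5 to 36.4%. In cells of 10000 to 20000 UMIs, a range above the median depth of control and mostly below that of BTYNB, the shares were 62.5% and 26.9%. The list medians in that window were -1.14 for S phase and -1.42 for G2 and M. The direction was thus the same at matched rank and at matched depth, while the size depended on how depth was handled.

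**Figure D2:**
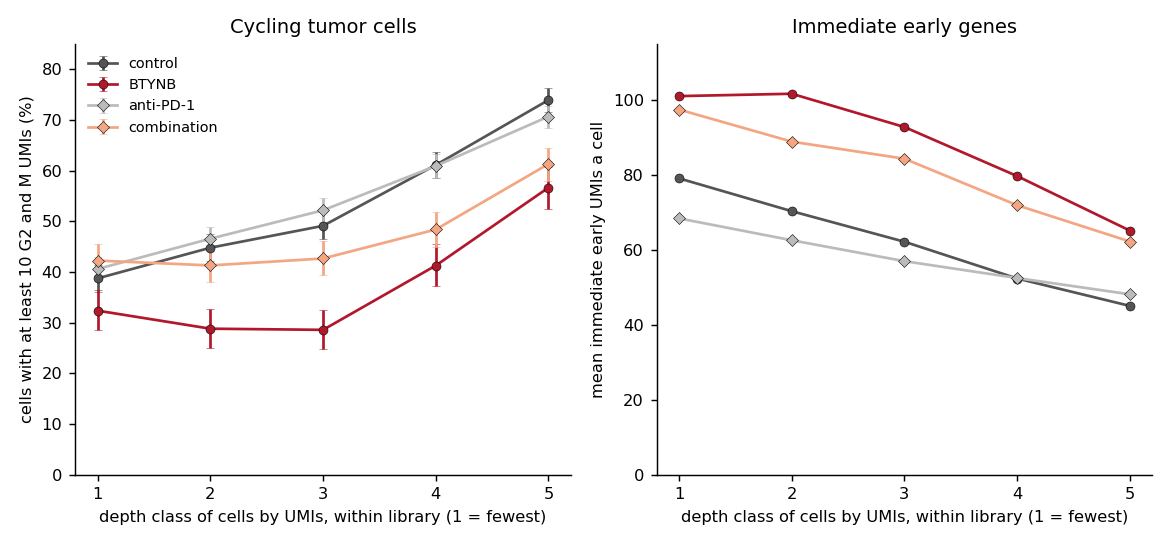
Left, the share of tumor cells with at least 10 G2 and M UMIs (%, bars show 95% exact binomial intervals), and right, the mean number of immediate early UMIs a cell, in 5 equal classes of cells ranked by UMIs within each of the 4 libraries, after thinning to 5115 UMIs. In the deepest class the share was 73.9% in control and 56.7% in BTYNB, and BTYNB lay above control for immediate early genes in every class.

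Interferon and antigen presentation lists differed from each other in direction. Of 28 type I interferon response genes, 0 were higher and 5 lower by at least 0.5, with a median of -0.28. Rtp4 had 47.4 CPM in control and 28.5 in BTYNB (-0.71), Oas1a, an antiviral oligoadenylate synthetase, 9.32 and 5.60 CPM (-0.64), and Eif2ak2, the RNA-sensing kinase PKR, 82.8 and 57.8 CPM (-0.51). Oasl2 was at 200.2 and 205.0 CPM (0.03). In the other pair the list median was 0.35, opposite in sign, as for Rtp4 with 29.2 CPM in anti-PD-1 and 39.8 in combination. Control had the highest Rtp4 level of the 4 libraries.

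Of 21 interferon-gamma response genes, 1 was higher and 0 lower by at least 0.5, with a median of 0.07 that was -0.08 without the cells having Cxcl17. Irf1, a transcription factor of this response, had 97.5 and 132.7 CPM, a ratio of 1.36 (1.32 to 1.41). Of 20 genes of MHC class I and antigen processing, 1 was higher and 1 lower by at least 0.5, with a median of 0.11 that was -0.012 without those cells. H2-K1 had 2106 and 2884 CPM, a ratio of 1.37 (1.36 to 1.38), H2-D1 1993 and 2076 CPM, a ratio of 1.04 (1.03 to 1.05), and B2m 4124 and 3978 CPM, a ratio of 0.965 (0.959 to 0.970). The heavy chain genes therefore differed from each other more than their counting error. H2-Q7 (0.95) was at 0.05 after subtraction of free RNA, and reads of the near-identical H2-Q genes may be split between them. Psme2, a proteasome activator subunit, had 148.1 and 94.1 CPM (-0.65). The 7 MHC class II genes had 0 members beyond 0.5 and a median of 0.25, with 794 and 1043 CPM for H2-Aa. Among other checkpoint ligands, Cd47 had 344 and 291 CPM (-0.24) and Lgals9 155.0 and 154.6 CPM.

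Collagen genes were mostly higher in BTYNB, while other matrix genes lay on both sides of 0. Of 24 collagen and basement membrane genes, 9 were higher and 1 lower by at least 0.5, with a median of 0.40 with and without the cells having Cxcl17. Col3a1 had 17.8 CPM in control and 41.0 in BTYNB, a ratio of 2.31 (2.16 to 2.47), and was counted in 6.47% and 12.2% of cells. Col6a2 had 40.0 and 67.5 CPM (log2 ratio 0.74), and Lama5, a laminin chain of basement membranes, 70.8 and 117.7 CPM (0.73). Col1a2 had 25.9 and 58.2 CPM, a ratio of 2.24 (2.12 to 2.38), but was counted in 1.46% and 1.49% of cells, and the top 1% of cells held 97.4% and 94.3% of its UMIs. Its higher sum thus came from about the same share of cells. Nid1 was the lower member, with 6.11 and 3.39 CPM (-0.70), and stood at 0.05 without the cells having Cxcl17. In the other pair Col3a1 had 18.2 and 38.9 CPM and Col1a2 15.97 and 50.8 CPM, and the list median was 0.47. Lama5 had 110.7 CPM in anti-PD-1 and 104.6 in combination (-0.08), so it was not higher with BTYNB in that pair. Of 23 genes of matrix glycoproteins and matrix remodeling, 6 were higher and 1 lower by at least 0.5 and 13 were above 0, with a median of 0.10 that was 0.0027 without the cells having Cxcl17. The summed level of all 32 listed was lower in BTYNB, at 5700.3 and 5228 CPM. Hmcn1, encoding a basement membrane hemicentin, had 29.1 and 61.8 CPM (1.06), the protease gene Mmp11 52.98 and 35.5 CPM (-0.56), and Timp2, an inhibitor of such proteases, 1481 and 1061 CPM (-0.48).

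Of 21 YAP and TGF-beta target genes, 6 were higher and 1 lower by at least 0.5, with a median of 0.25. The inhibitory Smad genes Smad6 (27.0 and 49.7 CPM) and Smad7 (33.3 and 60.9 CPM) both had a log2 ratio of 0.85, and Id1, a target of BMP signaling, had 180.4 and 292.2 CPM (0.69). Ccn1 was at 0.35 and Ccn2 at -0.06, and Tgfbi was lower with 63.9 and 31.4 CPM (-1.001). Flnc, encoding the actin cross-linker filamin C, had 20.2 and 52.8 CPM, a ratio of 2.61 (2.46 to 2.78), and was seen in 9.99% and 21.8% of cells. Pappa, a protease of insulin-like growth factor binding proteins, had 6.33 and 16.2 CPM, with 5.45 and 13.5 CPM in the other pair. Mid1, a microtubule-associated ubiquitin ligase, had 13.9 and 33.6 CPM, with 12.4 and 30.9 CPM there. These 3 genes were each higher in both libraries with BTYNB.

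Most mesothelial and complement genes were above 0. Of 19 mesothelial and ovarian surface genes, 4 were higher and 0 lower by at least 0.5, with a median of 0.39 that was 0.21 without the cells having Cxcl17. Muc16, encoding the antigen CA125, had 43.7 and 79.3 CPM (0.85), Cdh2, N-cadherin, 32.9 and 59.8 CPM (0.84), and Aldh1a2, a retinoic acid synthesizing enzyme, 58.3 and 96.3 CPM (0.71). Of the selection markers, Krt19 had 530 and 720 CPM (0.44), Wt1 751 and 909 CPM (0.28), Krt18 376 and 454 CPM (0.27), Krt7 10.04 and 15.4 CPM (0.57) and Krt8 354 and 317 CPM (-0.16). Cells were selected on their sum, so these values describe the selection. Of 17 complement and coagulation genes, 5 were higher and 0 lower by at least 0.5, with a median of 0.33. Without the cells having Cxcl17, 1 of 15 was higher by as much, with a median of 0.26, and without the cells having at least 10 G2 and M UMIs 0 of 16. C3 had 141.8 and 224.5 CPM (0.66) and C2 18.8 and 31.6 CPM (0.72).

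**Figure D3:**
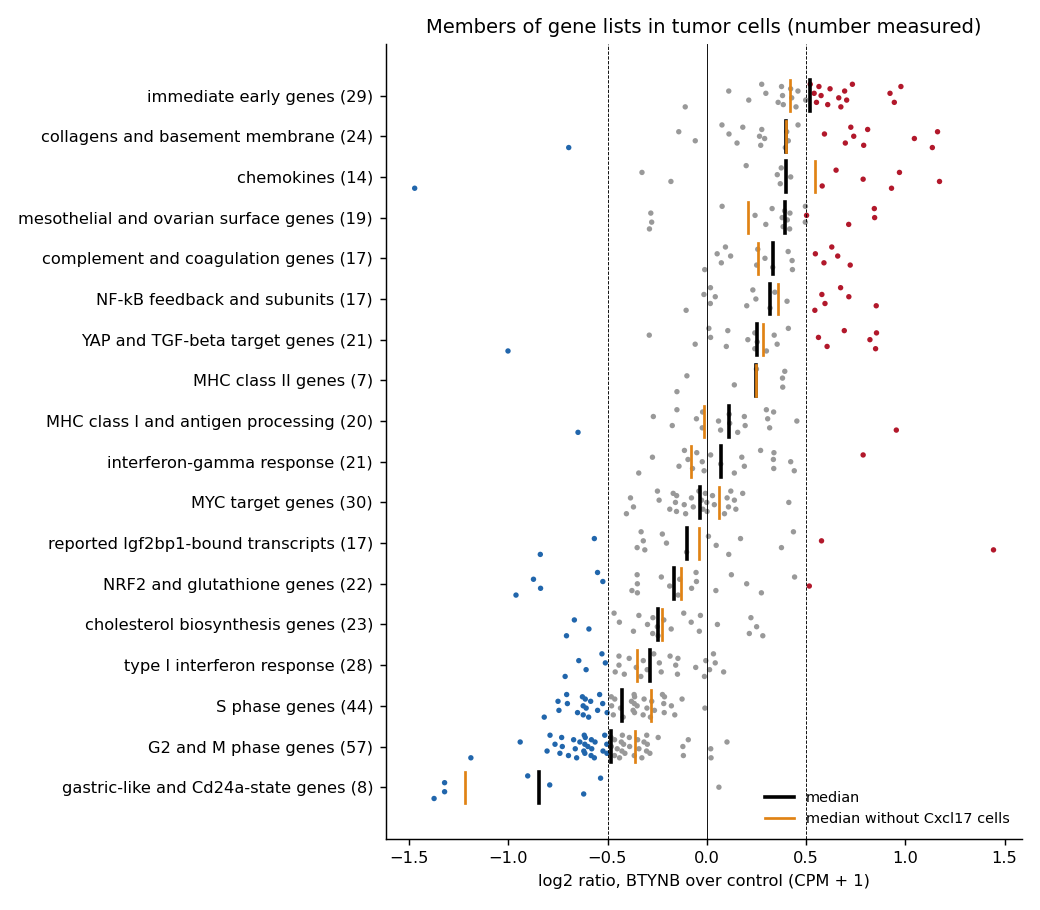
Each point is a measured member of a gene list with its log2 ratio of BTYNB to control (horizontal axis; red at least 0.5 higher, blue at least 0.5 lower), and bars give the list median over all tumor cells (black) and without cells having Cxcl17 (orange). Immediate early genes lie to the right with a median of 0.52, and G2 and M genes to the left with -0.48.

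The genes with the lowest ratios were mostly individual genes of different functions. Aqp1, a water channel, had 74.6 CPM in control and 16.2 in BTYNB, and control was higher by 4.60-fold (4.28 to 4.94). It was counted in 20.2% of control and 4.09% of BTYNB cells. It had 14.0 CPM in the anti-PD-1 library and 20.1 CPM under combination, so control stood apart from all 3 other libraries. Cst8, a cystatin gene, had 57.7 and 12.6 CPM, with 20.7 and 14.7 CPM in the other pair. Fhl1, a LIM domain protein gene, had 15.9 and 3.25 CPM, with 4.49 and 3.24 CPM there. In these 3 genes the anti-PD-1 library, without BTYNB, lay nearer to BTYNB than to control.

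Other genes were lower in both libraries with BTYNB. Plac8 had 298.4 and 116.7 CPM (log2 ratio -1.35), with 247.4 and 164.2 CPM in the other pair, and was seen in 56.1% and 28.6% of cells. Prss23, a serine protease gene, had 38.7 and 11.3 CPM (-1.69), with 26.7 and 13.6 CPM there. Gsta4, a glutathione transferase that clears lipid aldehydes, had 347 and 189.0 CPM (-0.87), with 372 and 173.2 CPM there. Stard10, a lipid transfer protein gene, had 61.3 and 23.03 CPM (-1.37), with 81.0 and 24.3 CPM there. The remaining named genes with the lowest ratios were AU021092 (-1.89), AA467197 (-1.82), Ftl1-ps1 (-1.69), Steap3 (-1.68), Coro1b (-1.59) and Ceacam1 (-1.50). Ftl1-ps1 is a pseudogene whose reads may be shared with Ftl1, which was at 1562 and 1271 CPM (-0.30). Of 8 measured genes of the gastric-like Cd24a-high state, 7 were lower by at least 0.5 and 0 higher, with a median of -0.85. The summed level of all 19 listed genes was 147.7 CPM for control and 69.1 for BTYNB, against 784 and 79.6 CPM for anti-PD-1 and combination. Of the 784 CPM, 317 CPM belonged to Gkn2, which had too few UMIs in control and BTYNB to be measured. The list was chosen with earlier results of these data known. The study places its Cd24-positive tumor cluster almost only in the anti-PD-1 group of this series. The high sum of the list under anti-PD-1 is therefore no independent result. Cd24a itself had 33.2 CPM in control and 21.3 in BTYNB (-0.62).

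Among genes of at least 200 CPM, the lower ones besides Plac8 and Gsta4 were Rpl10, Emb, Cavin3, Psmd8, Tspo and Cd9, with log2 ratios from -0.83 to -0.73. Tspo, encoding a mitochondrial outer membrane protein, had 408 and 244 CPM and Cd9, a tetraspanin gene, 538 and 324 CPM. The higher ones were Xist, Csrnp1, Jun, Atf3, Chka, Malat1, Kcnab1 and Cadm1, from 1.04 to 0.73. Malat1, a nuclear non-coding RNA, had 1850 and 3172 CPM, with 1964 and 3015 CPM in the other pair. Xist had 152.0 and 312.9 CPM, but 284.5 and 292.8 CPM there. Neat1, another nuclear RNA, had 164.5 and 162.1 CPM, so the nuclear RNAs differed in their ratios. Chka, encoding choline kinase alpha, had 136.0 and 248.0 CPM, with 118.2 and 294.5 CPM in the other pair. Akr1c18, a progesterone-metabolizing enzyme gene, had 5.30 and 13.9 CPM (1.25).

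**Figure D4:**
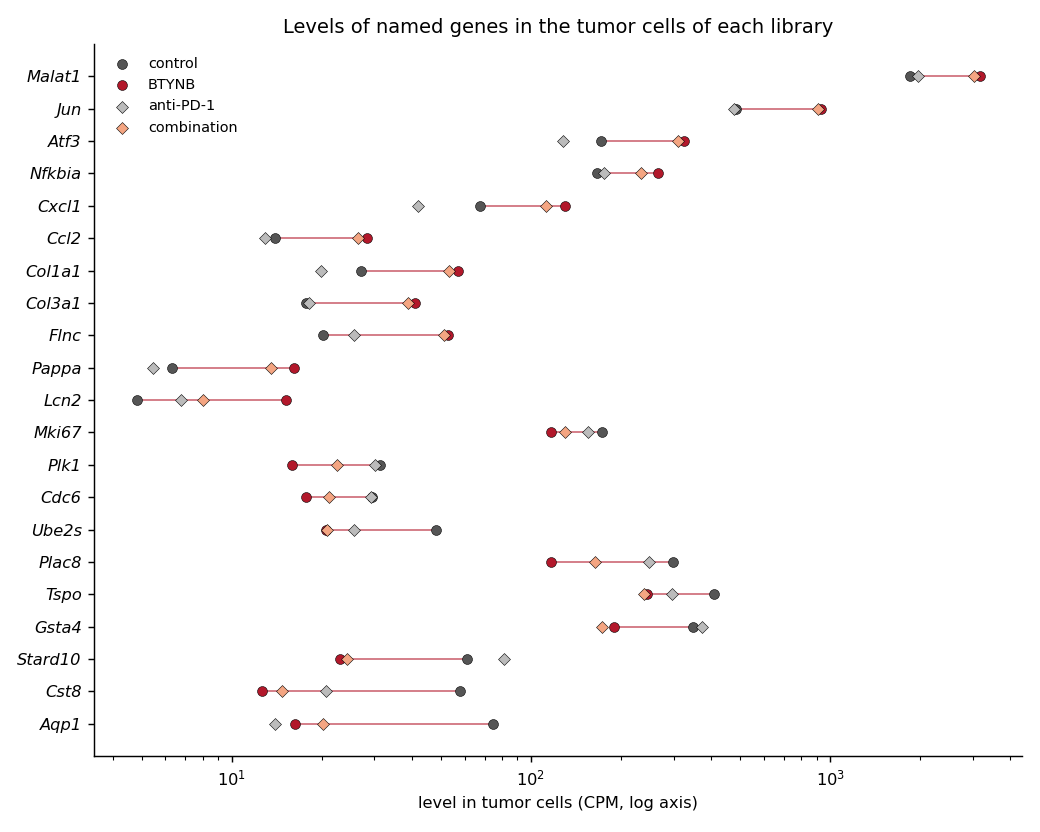
Levels of named genes in tumor cells (CPM, log axis), 1 point for each of the 4 libraries, with a line from control to BTYNB. Jun, at 485 CPM in control and 934 in BTYNB, had 476 CPM under anti-PD-1 and 909 under combination, whereas Aqp1 was high in control alone.

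The highest ratios of all named genes belonged to globin genes of erythroid cells. Of 5 erythroid markers, 4 were measured, and the sum over all 5 was 19.01 CPM in control and 72.6 in BTYNB. Hbb-bs had 5.57 and 25.1 CPM, Hba-a2 4.75 and 18.2 CPM and Hba-a1 6.43 and 23.6 CPM. These genes have near-identical copies, between which reads may be split. A UMI of Hbb-bs was counted in 0.732% and 2.60% of tumor cells, and the leukocytes of the BTYNB library held 176.5 CPM of it. After subtraction of free leukocyte RNA the log2 ratio of Hbb-bs was 1.95, against 1.99 before. The subtraction was scaled on leukocyte markers, so it cannot show how much globin RNA came from erythroid cells, which was not tested. B cell genes were also higher. Cd79a had 12.04 and 29.0 CPM (1.20) and 446 CPM in BTYNB leukocytes, and was at 0.87 after that subtraction, while Igkc, at 1.49, was at -2.63. In combination against anti-PD-1 Hbb-bs was at -0.75 and Igkc at 2.61. The neutrophil genes S100a8 (-1.54) and S100a9 (-0.78) were lower, with 9.10 and 2.48 CPM for S100a8. In thinned cells the neutrophil marker sum had a mean of 0.095 UMIs in control (standard deviation 3.31) and 0.050 in BTYNB (0.61). No such UMI was seen in 97.7% of BTYNB cells and in a larger share of control cells, so the control sum rests on few cells. Of markers too low to be measured, Csf3r (0.43), Mmp9 (0.32) and Cxcr2 (0.30) were above 0, and Retnlg (-0.43) and Ly6g (-0.09) below. Of the higher leading genes, 2 were set apart because their ratio was lost in a repeat, namely Igkc and the heat shock gene Hspa1b, which had 7.34 and 19.1 CPM and a log2 ratio of -0.35 without the cells having Cxcl17. Of the 12 higher leading genes kept, 8 had the same sign in combination against anti-PD-1, and of the 12 lower leading genes, 10. In each direction, 5 of the 12 had that sign with a log2 ratio of at least 0.5 in size there. The share of all genes with the same sign in both pairs is not given, so these counts lack a background.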

How the data were processed

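Ascites cells were captured on the BD Rhapsody platform, and the authors counted UMIs with the vendor's sequence analysis pipeline. GRCm39 is the genome build per the labels. The deposited files held raw UMI counts of genes by symbol, 1 matrix per library, with 7858 control and 19247 BTYNB cells. The values of 200 genes and 33% mitochondrial content were those of the study's methods. The study defined mitochondrial genes by the MitoCarta set. Here only mitochondrially encoded genes (symbols starting with mt-) were counted, so the 33% limit is not the same as in the study. No doublet caller was run here, and the removal of cells with Ptprc left out 272 control and 553 BTYNB cells that passed the other limits.

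Counts were summed over tumor cells per library and scaled to CPM. Log2 ratios used a pseudocount of 1 CPM over genes with at least 100 UMIs in either library. Intervals are exact at the 95% level (Clopper-Pearson for shares, and for ratios the interval of 1 count in the sum of both). Named genes were the 12 highest and 12 lowest ratios among genes of at least 10 CPM in the higher library and the 8 and 8 among genes of at least 200 CPM. Gene models without a symbol of their own were left out, and genes losing over 0.5 of their log2 ratio in a repeat were set apart. In each list the 2 highest and 2 lowest members and a fixed set of target, antigen presentation and marker genes were also followed, and some further members are given as examples. The gene lists and the selection of cells were chosen with earlier results of these data known. Free leukocyte RNA was estimated as the CPM of leukocyte markers in tumor cells over that in leukocytes (0.711% in control, 1.39% in BTYNB). The markers included Zbtb46, at 29.0 CPM in BTYNB tumor cells and 14.2 CPM in BTYNB leukocytes, so the estimate can be too high. For Igkc, Ccl5 and Il1b it was 28.6, 14.2 and 6.28 CPM in BTYNB, above the 17.5, 8.69 and 2.64 CPM counted. Levels below 0 were set to 0, so the ratios of these genes after subtraction reflect that floor. Cells were thinned at random to 5115 UMIs where shares of cells are given, and no cell was left out by this. The ratio and its interval were tested on simulated counts. Versions were Python 3.11.15, numpy 2.4.6, scipy 1.17.1 and pandas 2.3.3. Promoter sequences were from RefSeq, with gene symbols matched exactly.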

Additional observations from a re-analysis of the deposited data

Results flagged for a closer look

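In some named genes and lists the ratio of combination to anti-PD-1, the other pair of libraries with and without BTYNB, had the opposite sign to the ratio of BTYNB to control. The 10 genes below had log2 ratios of at least 0.5 in size in both pairs, and the 2 lists had the middle ranks of their members on opposite sides of 0. In all, 9 of 39 lists, those of other cell types not counted, had medians of opposite sign. Aqp1, at -2.13 and 0.495, lay just under the limit for genes. With 1 library a group the difference between the pairs was not tested, and its cause was not tested.

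Genes higher in BTYNB than in control were lower in combination than in anti-PD-1 by these log2 ratios. The globin genes had -0.75 for Hbb-bs, -0.70 for Hba-a2 and -0.57 for Hba-a1, and the erythroid markers summed to more in the anti-PD-1 library (45.9 CPM, against 26.5 CPM in combination). The non-coding RNA H19 had -0.91 and the heat shock gene Hspa1b -1.40. The adhesion gene Cadm1 had -0.92, with 407 CPM in anti-PD-1. The AP-1 gene Fosl1 had -0.85, the glycolytic gene Aldoc -0.73, the neuritin gene Nrn1 -0.99 and the calcium-binding protein gene S100a4 -0.62.

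The type I interferon response list had a median of 0.35 in combination against anti-PD-1 and -0.28 in BTYNB against control. The nuclear oxidative phosphorylation genes had 0.075 and -0.11.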

How the results depend on the processing

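The comparison was repeated under 16 other settings, of which the window of 10000 to 20000 UMIs was chosen after seeing the data. No paired analysis was possible because each group had 1 library. Of 623 list medians recomputed, 26 moved beyond the middle ranks of their members and 20, in 14 lists, changed sign. Each of these 14 lists had a median within 0.13 of 0 and middle members on both sides of 0. Among the 2824 values of named genes, 1793 stayed the same, 1022 moved without reversing and 9 reversed. Of the moved values, 160 were in the window of 10000 to 20000 UMIs, where 40 stayed the same. Without the cells having Cxcl17, 144 moved and 56 stayed the same.

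The number of genes at least 2-fold higher, 38, became 74 with at least 8000 UMIs a cell, 64 in cells without a leukocyte marker UMI, 271 in the depth window, 10 with a pseudocount of 5 CPM and 23 with at least 500 UMIs a gene. The number at least 2-fold lower, 79, became 47 without the cells having Cxcl17, 146 without a leukocyte marker UMI, 390 in the depth window and 21 with that pseudocount.

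The median of immediate early genes, 0.52, became 0.64 with at least 8000 UMIs, 0.63 without a leukocyte marker UMI and 0.86 in the depth window. In the same order S phase genes, at -0.43, had -0.53, -0.70 and -1.14, and G2 and M genes, at -0.48, had -0.62, -0.76 and -1.42. Without the cells having Cxcl17 these 2 lists had -0.28 and -0.36, and interferon-gamma genes -0.079.

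Signs turned without leukocyte marker UMIs for H19 (-0.32) and Hbb-bt (-0.36), with free RNA subtracted for Ighd (-0.076), Ighm (-1.26) and Igkc (-2.63), without the cells having Cxcl17 for Hspa1b (-0.35) and Nid1 (0.046), and in the depth window for Nid1 (0.047) and S100a4 (-0.10). The cause was not tested. The setting without leukocyte marker UMIs kept 2979 control and 526 BTYNB cells. With 1 pooled library a group, treatment and library cannot be told apart.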

Other observations

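Metabolic and stress lists not described above had small medians. Of 23 cholesterol biosynthesis genes, 3 were lower and 0 higher by at least 0.5 in BTYNB, with a median of -0.25, and 1 of 21 was lower by as much without the cells having Cxcl17. The 3 were Hmgcs1, which makes the mevalonate precursor (70.9 and 43.1 CPM, log2 ratio -0.71), Insig1 (-0.67), a sterol sensor, and Idi1 (-0.59). Srebf2, encoding the transcription factor of the pathway, had 68.5 and 81.7 CPM (0.25). Of 22 NRF2 and glutathione genes, 5 were lower and 1 higher by at least 0.5, with a median of -0.17. Gsto1 had 95.9 and 48.8 CPM (-0.96) and Gpx4, which reduces lipid peroxides, 520 and 355 CPM (-0.55), while Hmox1, encoding heme oxygenase, had 31.6 and 45.6 CPM (0.52).

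Of 13 mitochondrially encoded genes, 1 was higher by at least 0.5, with a median of 0.21 and mt-Nd5 at 3446 and 4827 CPM (0.49). The median mitochondrial share of a tumor cell was 11.1% in control and 12.1% in BTYNB. The 24 genes of the unfolded protein and ATF4 response had a median of 0.20 with 0 higher and 2 lower by at least 0.5, and Hspa5, the main chaperone of the endoplasmic reticulum, had 1617 and 1951 CPM (0.27).

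Ratios differed with the length of genes. Among 12155 measured genes with a length in the GENCODE annotation, ranked by genomic span into 5 equal classes, the median log2 ratio was 0.10 in the class with the longest genes and -0.05 in that with the shortest. In the class of longest genes, 7.98% were higher and 3.13% lower by at least 0.5, against 5.76% and 6.83% in that of shortest genes. The corresponding medians of combination against anti-PD-1 were 0.21 and 0.04. In cells thinned to 5115 UMIs, the medians of BTYNB against control were 0.11 and -0.04.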
